A study of Rattus norvegicus with 54 samples.

Results

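Transcripts of 4 AP-1 family genes, Fos, Fosb, Jun and Atf3, were followed in 54 RNA sequencing libraries from cultured rat cortical neurons. Genes were chosen by Ensembl identifier and chromosome: Fos as ENSRNOG00000008015, Fosb as ENSRNOG00000046667, Jun as ENSRNOG00000026293, Junb as ENSRNOG00000042838 and Atf3 as ENSRNOG00000003745. Of these 5 identifiers, 4 were found on the stated chromosome among the 30560 genes of the count table, and Junb was not analysed here. All 4 passed the filter on low counts, which left 17172 genes for testing. Counts per library ran from 732 to 35240 for Fos, from 92 to 10529 for Fosb, from 3176 to 75243 for Jun and from 443 to 27088 for Atf3.

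AP-1 is a dimeric transcription factor built from basic leucine zipper proteins. Fos proteins need a Jun partner to bind DNA stably, whereas Jun proteins can also pair with one another. Most of these genes are immediate early genes: synaptic activity and calcium entry switch them on without prior protein synthesis, and their mRNAs are short-lived. In cortical neurons they are widely read as markers of recent firing, seizures and injury. Fosb also yields a truncated, long-lived protein by alternative splicing (ΔFosB), and since reads were counted per gene its isoforms were not separated. Atf3 belongs to the related CREB/ATF family, pairs with Jun proteins and is induced by stress and axonal damage.

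Neurons came from rat embryonic cortex at day 18 of gestation. The 18 groups combined 3 constructs, 2 media and 3 time points, with 3 libraries each. Cultures were untransfected, carried the control virus AAV-SYN-GFP (GFP below), or carried AAV-SYN-rMBD3-GFP, made to overexpress Mbd3 (rMBD3 below). SYN denotes the synapsin promoter, which is used to drive expression in neurons, so other cells of a culture need not carry the transgene product. MBD3 is a subunit of the NuRD chromatin remodelling complex. Media either contained magnesium or lacked it; removal of magnesium unblocks NMDA receptors and was used to induce epileptiform activity. Cells were harvested at 2, 6 and 24 h after that change, and controls were kept in medium with magnesium for the same times. Each library also carries the number of its cell culture, 1, 2 or 3, which is shared by all groups; libraries with the same number are called a pair below. Neuronal and glial marker genes, the Mbd3 transcript and other AP-1 genes were not analysed here, because no symbol could be matched to the identifiers. In such bulk samples, fewer cells of a type and less RNA per cell cannot be told apart.

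Libraries held 14448927 to 39691105 counts (median 26121007). Libraries of culture 1 stood apart. The mitochondrial share of counts had a median of 3.12% in culture 1, against 1.88% in culture 2 and 2.07% in culture 3, while the depths were alike, with medians of 25901309.5, 25900981 and 26952464. The part that either measure plays in the levels below was not tested. For these reasons many results are also given with culture as a block, without culture 1 or culture by culture.

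Culture 1 held the highest level of the 4 genes in most groups. Jun was highest in culture 1 in 18 of 18 groups, which held for 70 of the 17172 genes tested (0.408%). Atf3 was highest in culture 1 in 17 groups, and Fos and Fosb in 15 each. On the log2 scale, culture 1 exceeded the mean of cultures 2 and 3 by 1.57 ± 0.64 for Jun, 2.07 ± 1.04 for Atf3, 1.196 ± 1.14 for Fos and 1.29 ± 1.45 for Fosb (SD over 18 groups). The median absolute difference over 13135 genes with a value in every library was 0.27.

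The excess in culture 1 was larger at later times for Fos, Fosb and Atf3, a change that was not tested. For Fos it was 0.29 at 2 h, 1.204 at 6 h and 2.09 at 24 h, and for Fosb 0.18, 0.84 and 2.83. At 2 h only 3 of 6 groups had their highest Fos or Fosb level in culture 1; at 6 and 24 h all 6 did. For Jun it was 1.53, 1.89 and 1.29, and for Atf3 1.41, 2.03 and 2.77. Cultures 2 and 3 differed less, with culture 3 above culture 2 by 0.24 for Fos, 0.41 for Fosb, 0.38 for Jun and 0.54 for Atf3. The biological coefficient of variation, edgeR's measure of spread between replicates, was 63.1% for Fos, 71.2% for Fosb, 65.5% for Jun and 84.9% for Atf3, against 39.7% over all genes. With culture as a block it was 45.3%, 55.1%, 28.9% and 42.2%, against 31.7%.

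**Figure D1:**
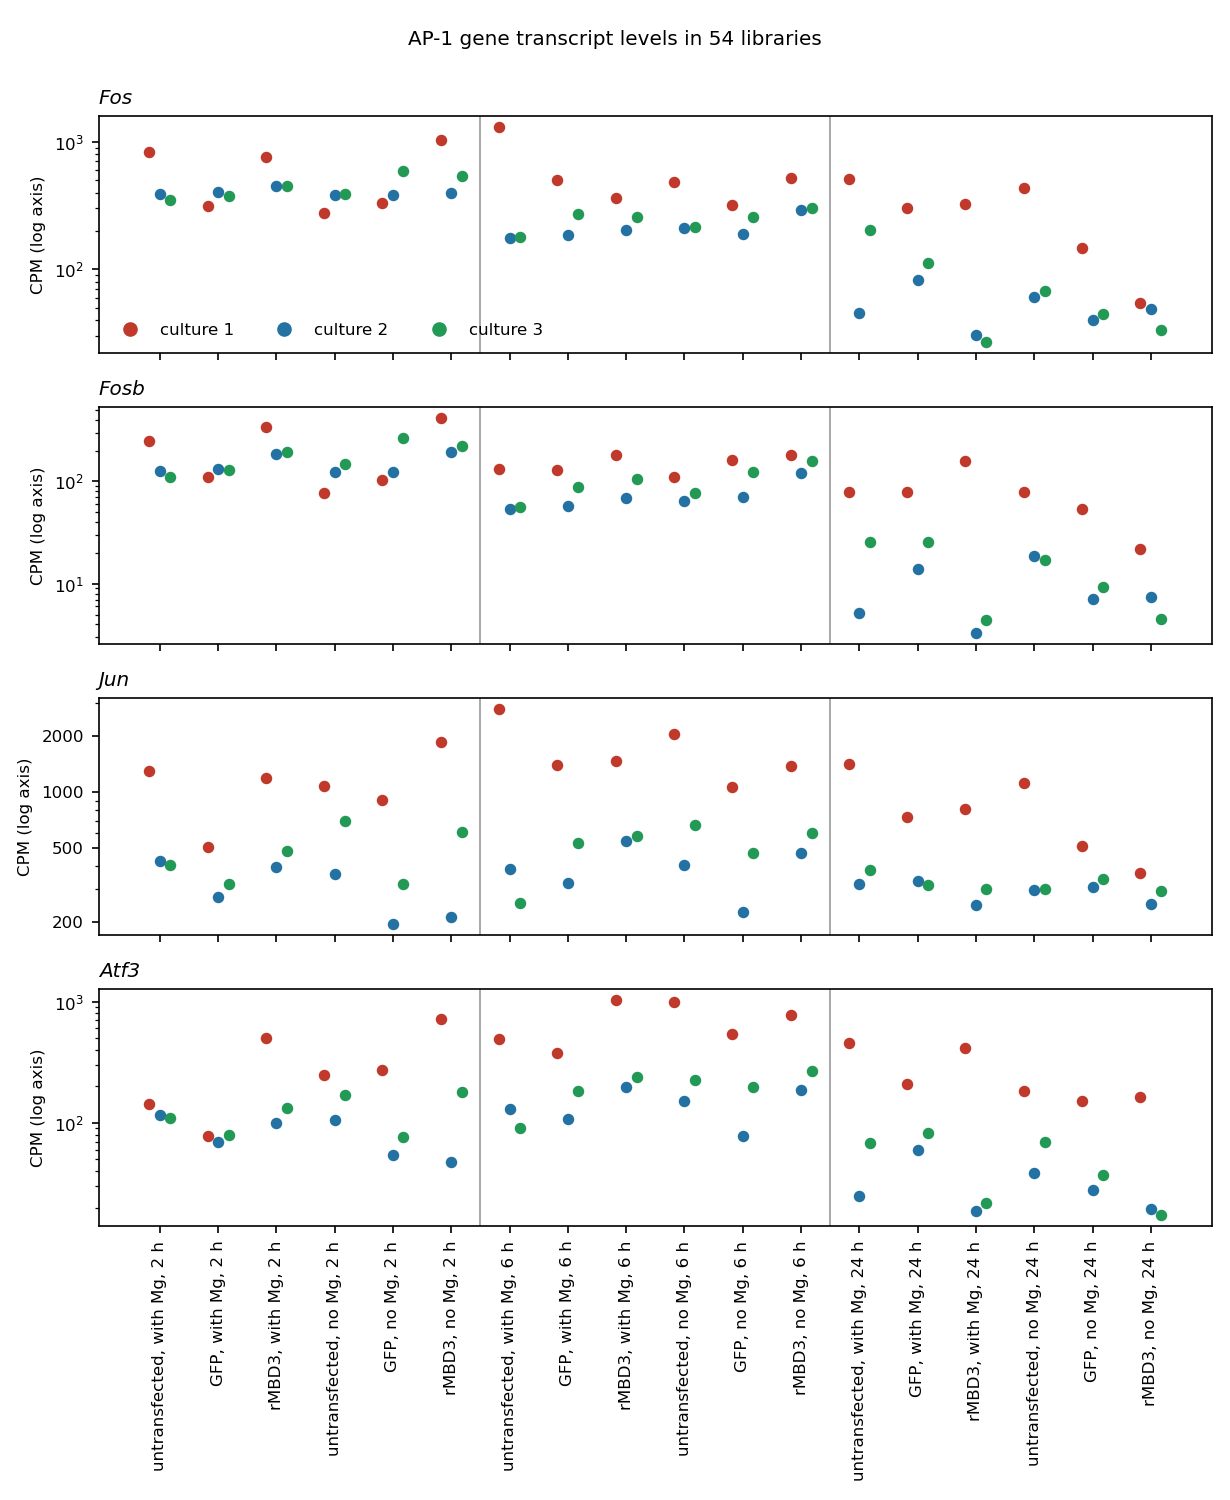
Level of each gene in CPM (counts relative to library size, log axis) in every library, ordered by time, medium and construct and coloured by culture number. Culture 1 holds the highest Jun level in 18 of 18 groups, and the lowest Fos and Fosb levels are in cultures 2 and 3 at 24 h.

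By median level per kilobase of exon, Fos was the most abundant of the 4 transcripts at 2 and 6 h and Jun at 24 h. Fos lies at chr6:105121170-105124036 (plus strand) on mRatBN7.2 and has 1589 bases of merged exon. Its median level was 249 CPM per kb at 2 h, 166 at 6 h and 40.4 at 24 h. Jun, whose exons cover its whole span at chr5:109893145-109897656 (minus strand, 4512 bases), had medians of 100.9, 126 and 72.5 CPM per kb. Atf3 lies at chr13:102751321-102764631 (minus strand, 1894 exonic bases), with medians of 59.4, 112 and 33.7 CPM per kb. Fosb, at chr1:78954115-78961465 (minus strand, 3741 exonic bases), was lowest, with 37.2, 28.95 and 4.78 CPM per kb.

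The median balance of Fos to Jun mRNA moved with time. Per kb, the median Fos to Jun ratio was 2.56 at 2 h (range 0.74 to 5.56), 1.32 at 6 h (0.67 to 2.37) and 0.61 at 24 h (0.25 to 1.51), 18 libraries each. In cultures 2 and 3 alone these medians were 3.12, 1.45 and 0.48. The Fosb to Fos ratio was 0.147 at 2 h, 0.148 at 6 h and 0.0763 at 24 h, and the Atf3 to Jun ratio 0.626, 0.869 and 0.405. Over all cultures each ratio overlapped between time points. In cultures 2 and 3 alone Fos to Jun at 2 h (lowest 1.59) lay above 24 h (highest 1.51). There Fosb to Fos at 2 h (lowest 0.133) lay above 24 h (highest 0.129), and Atf3 to Jun at 2 h (highest 0.705) lay below 6 h (lowest 0.787). None of these ratios was tested.

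Ordered by group mean, Fos and Fosb were highest in rMBD3 cultures without magnesium at 2 h, at 657 and 277 CPM, and lowest in the same construct and medium at 24 h, at 45.5 and 11.2 CPM. Jun was highest in untransfected cultures with magnesium at 6 h, at 1145 CPM, and lowest in rMBD3 cultures without magnesium at 24 h, at 305 CPM. Atf3 was highest in rMBD3 cultures with magnesium at 6 h, at 488 CPM, and lowest in rMBD3 cultures without magnesium at 24 h, at 67.4 CPM. In each of the 4 orders, 17 of 17 neighbouring groups overlapped in their 3 libraries. Neighbours in a sorted order have close means, so this marks the ranks as uncertain and says nothing particular about these genes.

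Between 2 and 6 h, Atf3 rose 2.07-fold, and the other genes did not pass the test. Averages here are over the 6 combinations of construct and medium. Atf3 ran from 47.9 to 723 CPM at 2 h (median 112) and from 78.6 to 1029 CPM at 6 h (median 211), so the 18 libraries of the 2 times overlapped. It was higher at 6 h in 17 of 18 pairs, and its log2 fold change was 1.05 ± 0.45 (SE, edgeR quasi-likelihood test with Benjamini-Hochberg adjustment, adjusted p = 0.049). Fos changed by -0.49 ± 0.32 (adjusted p = 0.21), Fosb by -0.71 ± 0.36 (adjusted p = 0.10) and Jun by 0.46 ± 0.33 (adjusted p = 0.25). Of all genes tested, 49.1% passed in this comparison.

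With culture as a block, all 4 genes passed between 2 and 6 h, against 54.7% of all genes. Fos fell by 0.66 ± 0.22 (adjusted p = 0.013) and Fosb fell by 0.83 ± 0.27 (adjusted p = 0.0098), while Jun rose by 0.38 ± 0.14 (adjusted p = 0.021) and Atf3 by 0.85 ± 0.21 (adjusted p = 0.00069). Fos and Fosb were lower at 6 h in 12 of 12 pairs of cultures 2 and 3, but in culture 1 the mean differences were 0.00 for Fos and -0.28 for Fosb. Without culture 1, 3 genes passed, against 57.5% of all genes: Fos at -0.85, Fosb at -0.87 and Atf3 at 0.78; Jun was at 0.28 (adjusted p = 0.15). The Atf3 call was lost without culture 2 (adjusted p = 0.085), without culture 3 (adjusted p = 0.18) and without the filter on low counts (adjusted p = 0.083). Within the medium with magnesium 0 of 4 genes passed without the block, against 31.5% of all genes, and 0 of 4 had an unadjusted p under 0.05; with it Jun and Atf3 did, against 38.9% of all genes. Without magnesium 0 of 4 passed (35.1% of all genes), again with 0 at an unadjusted p under 0.05, and with the block Atf3 alone did (42.1%).

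Between 6 and 24 h all 4 genes fell. Fos ran from 177 to 1309.7 CPM at 6 h (median 264) and from 26.96 to 513 CPM at 24 h (median 64.2). Fosb ran from 53.7 to 183 CPM (median 108) and then from 3.29 to 159 CPM (median 17.9). Jun ran from 226 to 2796 CPM (median 566) and then from 248 to 1413 CPM (median 327). For Atf3 the 24 h values were 17.3 to 452 CPM (median 63.9). Ranges overlapped for each gene. In cultures 2 and 3 alone Fosb ran from 53.7 to 158 CPM and then from 3.29 to 25.5 CPM. Fos, Jun and Atf3 still overlapped there between 6 and 24 h. How many of all genes separate in this way was not counted. Pair by pair, Fosb and Atf3 were lower at 24 h in 18 of 18 pairs, Fos in 17 and Jun in 15.

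The log2 fold change from 6 to 24 h was -1.44 ± 0.32 for Fos (adjusted p = 0.0003) and -1.79 ± 0.37 for Fosb (adjusted p = 0.00011), or 2.71-fold and 3.45-fold lower. It was -0.87 ± 0.33 for Jun (1.83-fold lower, adjusted p = 0.027) and -1.62 ± 0.45 for Atf3 (3.08-fold lower, adjusted p = 0.0029). The 4 genes had a median of -1.53, against 0.01 over all genes, and 26.3% of all genes were called lower. With culture as a block the 4 genes were also called, against 28.7% of all genes. Jun lost its call without culture 2 (adjusted p = 0.058), and without culture 3 both Jun (adjusted p = 0.15) and Atf3 (adjusted p = 0.072) lost theirs. Leaving out culture 1 moved Fosb to -3.05 ± 0.21.

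Split by medium, the fall from 6 to 24 h passed for 0 of 4 genes with magnesium (16.3% of all genes called lower) and for Fos, Fosb and Atf3 without it (20.9%). With magnesium the changes were -1.07 ± 0.45 for Fos, -1.16 ± 0.51 for Fosb, -0.78 ± 0.47 for Jun and -0.99 ± 0.63 for Atf3; 2 of the 4 had an unadjusted p under 0.05. Without magnesium they were -1.81 ± 0.46, -2.42 ± 0.54, -0.96 ± 0.47 and -2.25 ± 0.65. With culture as a block all 4 passed in both media, against 19.7% of all genes called lower with magnesium and 24% without it. Without culture 1, Fos (-1.58), Fosb (-2.74) and Atf3 (-1.89) passed with magnesium; without culture 3 no gene passed in the magnesium-free medium, Fosb being nearest (adjusted p = 0.062). The difference between the media in this fall was not tested; over 2 to 24 h it was -0.97 ± 0.64 for Fos, -1.04 ± 0.72 for Fosb, -0.62 ± 0.66 for Jun and -1.50 ± 0.89 for Atf3. None of these passed, nor did any other gene (0%).

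**Figure D2:**
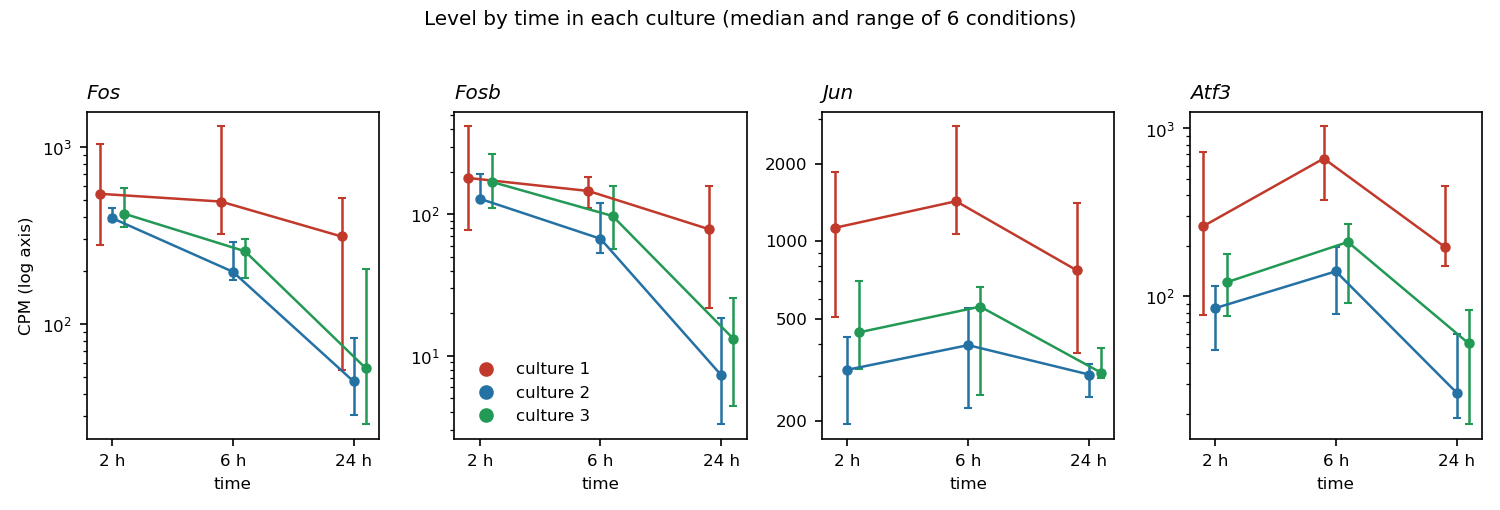
Level by time in each culture, in CPM on a log axis; points are medians of 6 conditions and bars run from the lowest to the highest. Fosb in cultures 2 and 3 falls to between 3.29 and 25.5 CPM at 24 h, whereas culture 1 stays between 21.6 and 159 CPM.

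Over the whole interval from 2 to 24 h, Fos and Fosb fell and Jun and Atf3 did not pass. Fos changed by -1.93 ± 0.33 (3.80-fold lower, adjusted p = 2.3e-06) and Fosb by -2.50 ± 0.38 (5.64-fold lower, adjusted p = 2.7e-07). Jun changed by -0.41 ± 0.33 (adjusted p = 0.28) and Atf3 by -0.58 ± 0.44 (adjusted p = 0.25). Of all genes, 35.3% were called lower. With culture as a block all 4 were called lower, against 37.1% of all genes, with Jun at -0.34 ± 0.14 (adjusted p = 0.027) and Atf3 at -1.004 ± 0.21 (adjusted p = 6.3e-05). Atf3 was called without culture 1 as well, at -1.41 ± 0.21.

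The cultures differed in how far the Fos genes had dropped by 24 h. Mean log2 changes from 2 to 24 h in cultures 1, 2 and 3 were -1.12, -3.04 and -2.81 for Fos, and -1.41, -4.21 and -3.91 for Fosb. For Atf3 they were -0.10, -1.41 and -1.50, and for Jun -0.50, -0.03 and -0.49. The difference between cultures was not tested. At 24 h, Fosb had a median of 78.4 CPM in the 6 libraries of culture 1 (range 21.6 to 159) and 8.33 CPM in the 12 of cultures 2 and 3 (3.29 to 25.5). Atf3 had medians of 197 CPM (152 to 452) and 32.6 CPM (17.3 to 82.7).

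**Figure D3:**
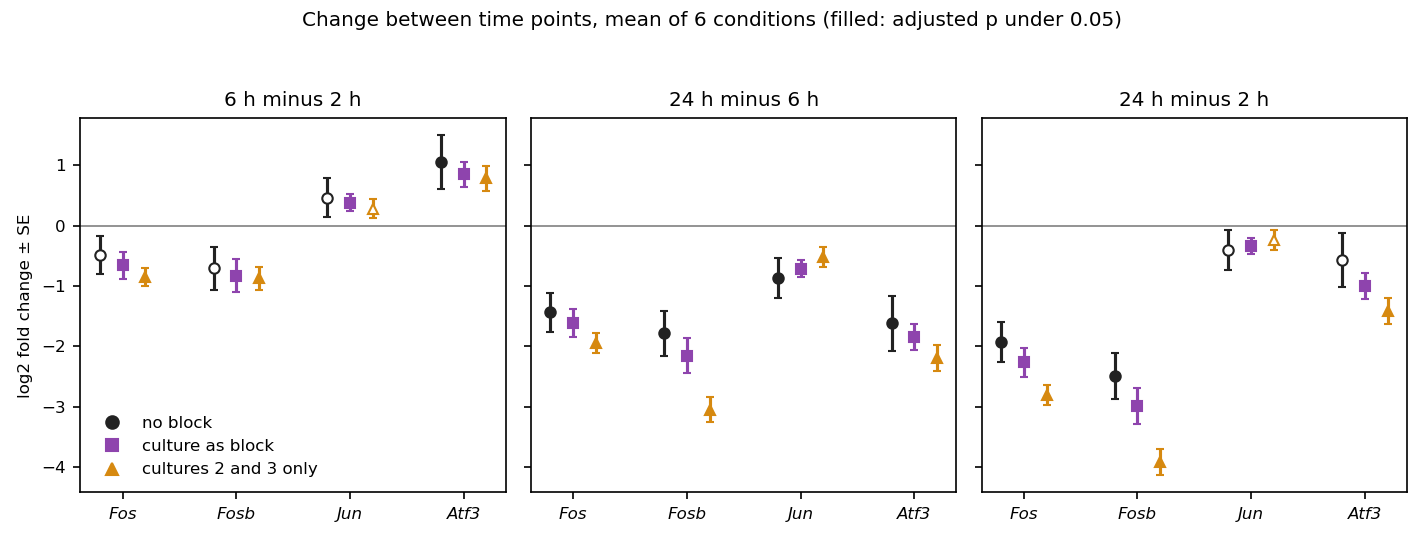
Log2 fold change ± SE between time points, averaged over 6 conditions, from the model without a block, with culture as a block, and without culture 1; filled symbols have an adjusted p under 0.05. From 6 to 24 h all 4 genes lie below 0 in each model, with Fosb at -1.79 without the block and -3.05 without culture 1.

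Removal of magnesium changed none of the 4 genes past the threshold at any time. In the model without a block no other gene tested passed either (0% at 2, 6 and 24 h). At 24 h genes outside the family were called under other fits, with 0 of the 4 among them: 0.21% of all genes with culture as a block, 6.91% with a block for each culture at each time point, and 1.04% without culture 1. At 2 h, the earliest time, the log2 difference without minus with magnesium was -0.03 ± 0.45 for Fos, with a 95% interval from -0.93 to 0.88. For Fosb it was 0.05 ± 0.51 (-0.98 to 1.07), for Jun 0.25 ± 0.47 (-0.70 to 1.19) and for Atf3 0.57 ± 0.63 (-0.69 to 1.84). Each interval holds 0 and reaches 0.88 or more above it. At 6 h the differences were -0.26 ± 0.45, 0.27 ± 0.51, -0.19 ± 0.47 and 0.33 ± 0.62. Fosb was higher without magnesium in 8 of 9 pairs, Fos and Atf3 in 6 each and Jun in 3. The mean pair differences of Fos in cultures 1, 2 and 3 were -0.53, 0.27 and 0.14. At an unadjusted p under 0.05, 0 of 4 genes passed at 2 and 6 h.

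At 24 h all 4 differences were negative. Fos was at -1.001 ± 0.45 (interval -1.92 to -0.08, adjusted p = 0.39), Fosb at -0.99 ± 0.52 (-2.04 to 0.05), Jun at -0.37 ± 0.47 (-1.32 to 0.57) and Atf3 at -0.93 ± 0.63 (-2.20 to 0.35). Fos alone of the 4 had an unadjusted p under 0.05. Fos was lower without magnesium in 6 of 9 pairs, and without culture 1 its difference was -0.54 and that of Fosb -0.13. The median of the 4 genes was -0.96, against 0.00 over all genes, and -0.23 without culture 1.

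In GFP cultures at 24 h, Fos, Fosb and Atf3 were lower without magnesium in each culture. Fos was at 301, 82.8 and 112 CPM with magnesium and 148, 40.4 and 44.5 CPM without it in cultures 1, 2 and 3. Fosb was at 78.4, 13.8 and 25.5 CPM with magnesium and 53.7, 7.17 and 9.25 CPM without it. Atf3 was at 211, 60.02 and 82.7 CPM and at 152, 28.2 and 37.1 CPM. Each of these genes was lower in 3 of 3 pairs, although the groups overlapped over the 3 cultures. For Jun the pair differences were -0.53, -0.11 and 0.12 in GFP cultures, while in untransfected cultures Jun was lower without magnesium in 3 of 3 pairs, by 0.10 to 0.34. The model gave -1.09 ± 0.79 for Fos, -0.75 ± 0.89 for Fosb and -0.71 ± 1.09 for Atf3, none past the threshold (adjusted p = 0.81 to 0.98 over the 4 genes).

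In rMBD3 cultures at 24 h the sign of the medium difference depended on culture 1. Fos was at 323, 30.5 and 26.96 CPM with magnesium and 54.5, 48.6 and 33.3 CPM without it. The fitted difference was -1.48 ± 0.79, and 0.51 ± 0.39 without culture 1. Fosb was at 159, 3.29 and 4.46 CPM with magnesium and 21.6, 7.42 and 4.54 CPM without it, giving -2.30 ± 0.93, and 0.62 ± 0.52 without culture 1. Fosb here was the 1 of 4 genes with an unadjusted p under 0.05 in any of the 9 single conditions of medium, and adjusted p was 1. In untransfected cultures at 6 h, Fos likewise went from -0.88 ± 0.78 to 0.27 ± 0.38 without culture 1. In each of the 9 single conditions 0 of 4 members and 0% of genes were called in the model without a block. With a block for each culture at each time point, 1.6% of all genes were called at 24 h in GFP cultures and 0.14% in untransfected ones. Without culture 1 these were 0.571% and 1.55%, again with 0 members. The change of the medium effect from 2 to 6 h, tested as such, was -0.23 ± 0.63 for Fos, 0.22 ± 0.72 for Fosb, -0.44 ± 0.66 for Jun and -0.24 ± 0.88 for Atf3 (0 members and 0% of genes called).

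**Figure D4:**
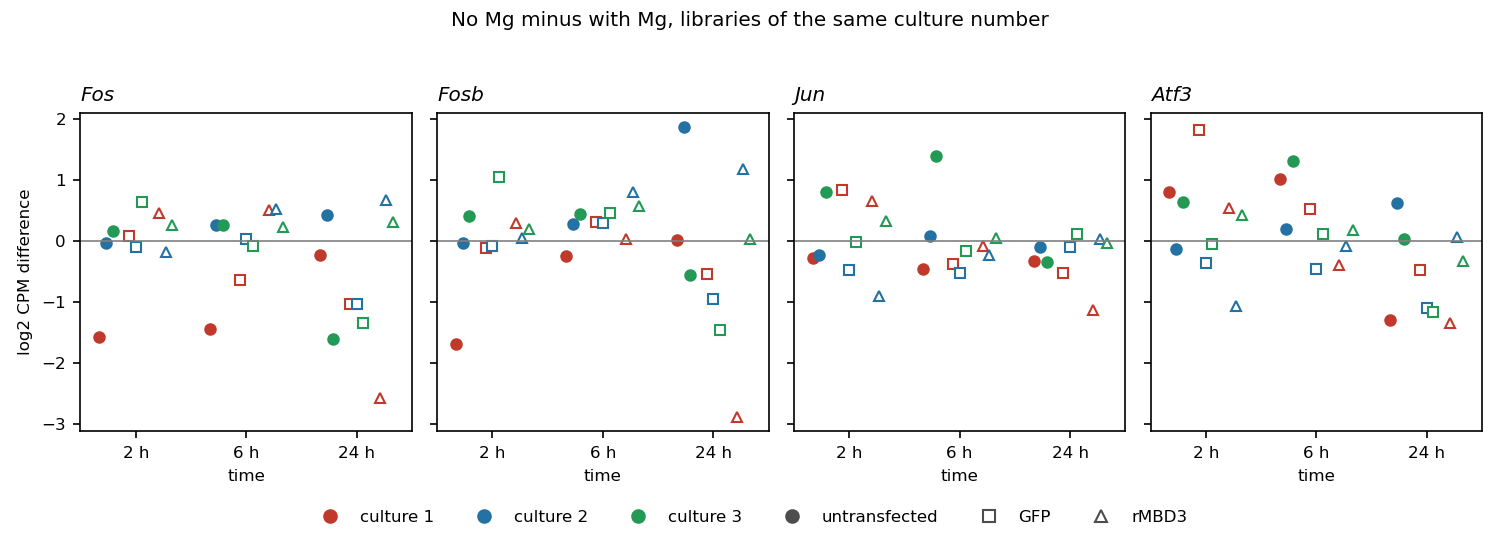
Log2 CPM difference of magnesium-free minus magnesium-containing medium for libraries of the same construct, time and culture number; colours give the culture and symbols the construct. At 24 h the 3 GFP pairs lie below 0 for Fos, Fosb and Atf3, and the rMBD3 pair of culture 1 lies lowest for Fos and Fosb.

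The control virus by itself moved none of the 4 genes past the threshold. Averaged over both media, GFP minus untransfected at 2 h was -0.10 ± 0.55 for Fos, 0.05 ± 0.62 for Fosb, -0.77 ± 0.57 for Jun and -0.54 ± 0.77 for Atf3. Jun was lower with GFP in 6 of 6 pairs at 2 h, by 0.24 to 1.35 on the log2 scale, and in 5 of 6 at 6 h; with culture as a block its 2 h difference was -0.76 ± 0.24 (adjusted p = 0.46). At 6 h the differences were -0.52 ± 0.55, 0.34 ± 0.62, -0.71 ± 0.57 and -0.41 ± 0.77, and at 24 h -0.95 ± 0.55, -0.31 ± 0.63, -0.59 ± 0.57 and -0.53 ± 0.77. The cultures disagreed in sign at these later times. Mean pair differences at 6 h in cultures 1, 2 and 3 were -0.98, -0.05 and 0.41 for Fos. For Fosb they were 0.26, 0.09 and 0.66, for Jun -0.97, -0.54 and 0.29 and for Atf3 -0.62, -0.61 and 0.40. At 24 h they were -1.17, 0.13 and -0.73 for Fos and -0.28, 0.03 and -0.44 for Fosb. For Jun they were -1.04, 0.06 and -0.06, and for Atf3 -0.69, 0.40 and -0.31. Of all genes, 0% were called at 2 and 6 h and 0.0233% at 24 h. At an unadjusted p under 0.05, 0 of 4 members passed at each time.

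Added rMBD3, compared with the GFP virus, went with higher fitted values of the 4 genes at 2 h, though none passed in the model without a block. Atf3 with magnesium was at 77.9, 69.6 and 79.1 CPM in GFP cultures 1, 2 and 3 and at 499, 100.4 and 133.5 CPM in rMBD3 cultures. Fosb in that medium was at 111, 131 and 129 CPM with GFP and at 342, 186 and 192 CPM with rMBD3. Fos was at 315, 407 and 378 against 755, 453 and 446 CPM, and Jun at 509.5, 272 and 323 against 1186, 395 and 483 CPM. In this comparison 0 of 4 members and 0.0116% of all genes were called. The share of all genes without overlap is not given for this or any other comparison. Without magnesium, Atf3 was at 274, 53.9 and 76.8 CPM with GFP and 723, 47.9 and 180.0 CPM with rMBD3, and all 4 genes overlapped there.

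Averaged over media at 2 h, rMBD3 minus GFP was 0.59 ± 0.55 for Fos, 0.85 ± 0.62 for Fosb, 0.91 ± 0.58 for Jun and 1.46 ± 0.78 for Atf3 (adjusted p = 0.79, 0.69, 0.61 and 0.49). Jun was higher with rMBD3 in 6 of 6 pairs and the other genes in 5 of 6. The median of the 4 was 0.88, against -0.04 over all genes. In this comparison 0.874% of all genes were called; by medium it was the 0.0116% above with magnesium and 0.00582% without, with 0 members each. With a block for each culture at each time point, Jun (0.76 ± 0.24, adjusted p = 0.047) and Atf3 (1.13 ± 0.34, adjusted p = 0.039) passed, while 3.95% of all genes were called higher. With 1 block per culture over all times they did not (adjusted p = 0.077 and 0.13). A difference from GFP need not be one from untransfected cultures, and rMBD3 was not tested against the latter here. Median Jun at 2 h was 564 CPM in untransfected, 321 in GFP and 546 in rMBD3 cultures. For Atf3 these medians were 129, 77.4 and 157 CPM, with GFP again the lowest. For Fos they were 388, 380 and 495 CPM and for Fosb 126, 127 and 206 CPM, with GFP near the untransfected level. The largest pair differences were in culture 1: its mean was 2.04 for Atf3 and 1.83 for Fosb, against 0.18 and 0.57 in culture 2 and 0.99 and 0.15 in culture 3.

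At 6 h the rMBD3 minus GFP difference passed for none of the 4 genes. It was 0.16 ± 0.55 for Fos, 0.37 ± 0.62 for Fosb, 0.34 ± 0.57 for Jun and 0.86 ± 0.77 for Atf3, with 0 of 4 called against 0.221% of all genes. Fosb, Jun and Atf3 were higher with rMBD3 in 6 of 6 pairs and Fos in 4. The 6 pairs come from 3 cultures and are not independent. For this or any other count of pairs, the share of all genes with the same count was not obtained. Atf3 pair differences ran from 0.38 to 1.45 and those of Fosb from 0.19 to 0.78. The cultures differed in how this compared with 2 h. Mean pair differences of Atf3 in cultures 1, 2 and 3 were 2.04, 0.18 and 0.99 at 2 h. At 6 h they were 0.98, 1.06 and 0.41. For Jun they were 1.12, 0.33 and 0.76 at 2 h and 0.23, 0.90 and 0.24 at 6 h. For Fos they were 1.45, 0.11 and 0.06, then 0.11, 0.38 and 0.09. For Fosb they were 1.83, 0.57 and 0.15, then 0.33, 0.54 and 0.30. The change from 2 to 6 h was not tested. By medium, 0.0116% of genes were called with magnesium and 0.00582% without, with 0 members in either.

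At 24 h the fitted sign turned for 3 of the 4 genes, though none passed. The averaged difference was -0.58 ± 0.55 for Fos, -0.28 ± 0.63 for Fosb, -0.19 ± 0.57 for Jun and 0.14 ± 0.77 for Atf3, with 0 of 4 called against 0.949% of all genes. Fos, Fosb and Atf3 were each lower with rMBD3 in 4 of 6 pairs and Jun in 5. The mean pair difference of Atf3 was -0.68, opposite in sign to its fitted value. Cultures disagreed most with magnesium present. Fos was at 301, 82.8 and 112 CPM with GFP and 323, 30.5 and 26.96 CPM with rMBD3 in cultures 1, 2 and 3. Fosb was at 78.4, 13.8 and 25.5 CPM with GFP and 159, 3.29 and 4.46 CPM with rMBD3. Atf3 was at 211, 60.02 and 82.7 CPM with GFP and 416, 18.8 and 21.8 CPM with rMBD3. In culture 1 the rMBD3 library was thus the higher, and in cultures 2 and 3 it was the lower for all 3 genes. Jun varied less, at 737, 334 and 315 CPM against 807, 248 and 303 CPM.

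Without culture 1, 3 of the 4 genes were called lower with rMBD3 at 24 h, against 6.69% of all genes: Fos at -0.93 ± 0.27 (adjusted p = 0.034), Fosb at -1.42 ± 0.36 (adjusted p = 0.017) and Atf3 at -1.33 ± 0.37 (adjusted p = 0.028). In medium with magnesium, where the fit of all cultures called 0 of 4 and 0.134% of all genes, the same 3 were called without culture 1, against 6.75% of all genes. There Fos was at -1.78 ± 0.39, Fosb at -2.36 ± 0.52 and Atf3 at -1.83 ± 0.53; with all cultures Fosb and Atf3 had the opposite sign, at 0.50 ± 0.88 and 0.37 ± 1.08. Without magnesium 0 of 4 were called (0.0233% of all genes), and Jun was lower with rMBD3 in 3 of 3 pairs, by 0.21 to 0.47. At an unadjusted p under 0.05, 0 of 4 genes passed at 2, 6 and 24 h in the model of all cultures without a block.

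**Figure D5:**
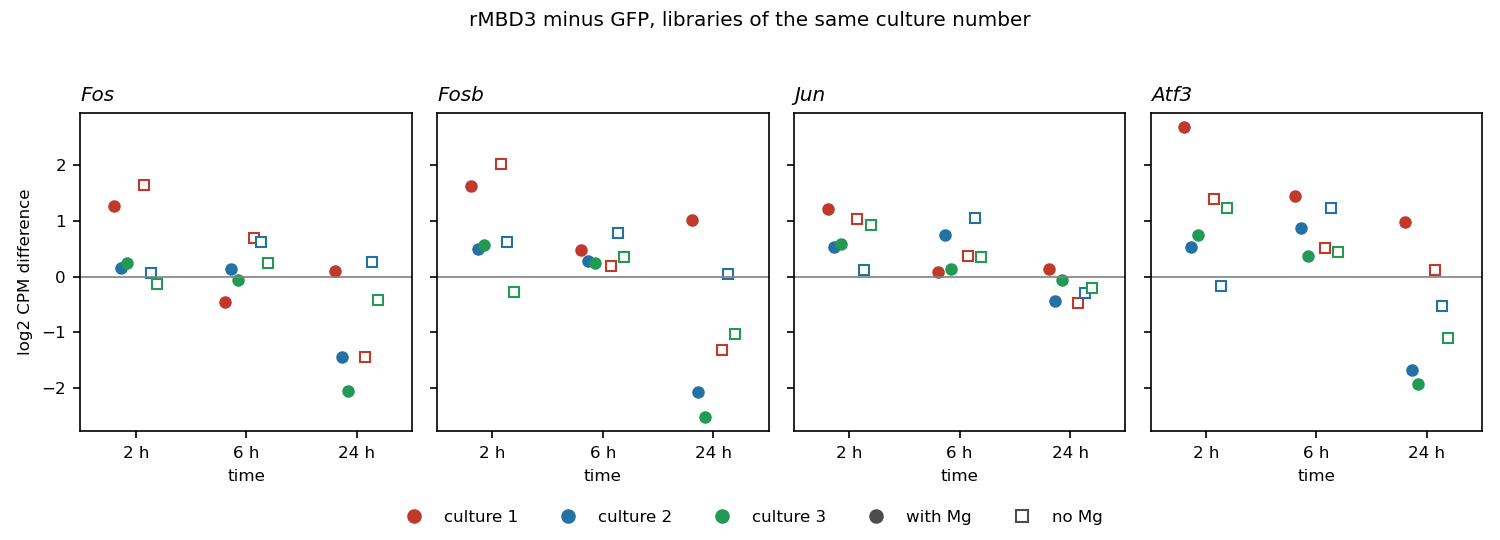
Log2 CPM difference of rMBD3 minus GFP for libraries of the same medium, time and culture number; colours give the culture and symbols the medium. Fosb, Jun and Atf3 lie above 0 at 6 h in 6 of 6 pairs, which come from 3 cultures. At 24 h with magnesium culture 1 lies apart from cultures 2 and 3.

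The change of the rMBD3 effect between 2 and 24 h was tested as an interaction. It was -1.17 ± 0.78 for Fos, -1.13 ± 0.89 for Fosb, -1.09 ± 0.81 for Jun and -1.33 ± 1.09 for Atf3, with 0 of 4 called against 0.0175% of all genes. Without culture 1 Atf3 was at -2.08 ± 0.52 (adjusted p = 0.092) and Fosb at -1.75 ± 0.48 (adjusted p = 0.13). Whether the rMBD3 effect differed between media was also tested at 2, 6 and 24 h, and 0 of 4 members and 0% of genes passed at each. The largest of these values was Fosb at 24 h, -1.55 ± 1.26, which became 1.88 ± 0.71 without culture 1. Averaged over all 6 conditions, rMBD3 minus GFP was 0.06 ± 0.32 for Fos, 0.32 ± 0.36 for Fosb, 0.35 ± 0.33 for Jun and 0.82 ± 0.44 for Atf3, with 0 of 4 called while 11% of all genes were.

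Profiles of the 4 genes were compared over the groups. Across 18 group means of log2 CPM, Pearson's r was 0.97 for Fos and Fosb (Spearman's rho 0.94) and 0.90 for Jun and Atf3 (rho 0.86). For Fos and Jun r was 0.62 (rho 0.38), and without the 2 groups farthest from the Fos median it was 0.41. Deviations of the 54 libraries from their group means had r = 0.92 for Fos and Fosb and 0.75 for Fos and Jun. In cultures 2 and 3 alone, r over group means was 0.98 for Fos and Fosb, 0.81 for Fosb and Atf3, 0.79 for Jun and Atf3 and 0.77 for Fos and Atf3. The points share cultures and libraries and are not independent, so these are descriptions without a test.

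The genes whose profile over the 18 group means was most like the mean of the standardised profiles of the 4, among 12146 genes with a mean log2 CPM of at least 1, were ENSRNOG00000011668 (r = 0.96, chr17:12280484-12295858) and ENSRNOG00000015382 (r = 0.95, chr9:38534590-38547597). Their median levels at 2, 6 and 24 h were 145, 107 and 38.3 CPM for the first and 63.1, 40.4 and 14.2 CPM for the second. The 4 AP-1 genes themselves had r = 0.86 (Jun) to 0.93 (Atf3) with that mean, of which each forms a part.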

How the data were processed

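Gene counts were deposited by the authors as 1 table; per the file headers, featureCounts 2.0.0 counted read pairs by strand (setting 2, minimum mapping quality 3) on the Ensembl release 105 annotation of mRatBN7.2, whereas the labels' protocols name STAR and rn6. Coordinates are those of the table. Gene symbols come from the selection rule; of 30560 identifiers, 0 matched the RefSeq symbol table (GRCr8). The authors' log2 values were not used.

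edgeR 4.0.16 in R 4.3.3 was run on the counts as deposited: filterByExpr (minimum count 10, minimum total 15), TMM factors, 1 coefficient for each of 18 groups, robust quasi-likelihood tests of 38 contrasts, Benjamini-Hochberg adjustment over all genes, threshold 0.05. CPM values are TMM-scaled. Standard errors derive from the fold change and its F statistic. Alternatives were culture as a block, a block per culture and time point, RLE factors, no filter, DESeq2 1.42.0 (total count of at least 10), each time point alone, and leaving out each culture.

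Pairing rests on the culture number in the labels. Within a time point, deviations from the group mean correlated between libraries of one culture. The mean r was 0.40, 0.29 and 0.14 for cultures 1, 2 and 3. Between time points, which the pairs across time rest on, it was lower, at 0.21, 0.14 and 0.099. Over all other groups, 48 of 54 libraries correlated best with their own number. Whether the 3 cultures came from separate litters is not stated. The model without a block treats all libraries as independent, although libraries of one culture correlate. A block takes constant differences between cultures out of the spread. The p-values thus measure the spread between libraries, and time contrasts rest on 18 libraries per time from only 3 cultures. Counts of 16721 genes were simulated, with 200 changed per contrast. The contrast of rMBD3 with GFP at 2 h found 61% of 2-fold and 97% of 4-fold changes, with 6.51% false calls. That of 24 h with 6 h found 94% and 100%, with 5.37% false. These counts held no differences between cultures, and the changed genes were drawn at random. The 4 genes had a larger coefficient of variation (63.1% to 84.9%, against 39.7% over all genes), so these rates need not hold for them. The members and lists were chosen with earlier results of these data known.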

Additional observations from a re-analysis of the deposited data

Results flagged for a closer look

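Of 144 combinations of a gene with a pair of effects that were looked at, 3 had every same-numbered pair on one side of 0 in the first effect and on the other side in the second. With 3 pairs each, none of these differences was tested in its own right. Random signs can give this pattern with so few pairs, and how often they would among 144 was not computed. The count is therefore not read as a result about these genes. The Jun combinations below share the same 24 h values.

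Fosb in GFP cultures was higher without magnesium at 6 h in 3 of 3 pairs (mean log2 difference 0.36, range 0.30 to 0.47) and lower at 24 h in 3 of 3 (-0.98, range -1.46 to -0.55), a shift of -1.34.

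Jun in medium without magnesium was higher with rMBD3 than with GFP at 6 h in 3 of 3 pairs (0.59, range 0.35 to 1.05) and lower at 24 h in 3 of 3 (-0.33, range -0.47 to -0.21), a shift of -0.92. Against 2 h, where it was also higher in 3 of 3 pairs (0.69), the shift was -1.02. Averaged over both media, the interaction of rMBD3 with time from 2 to 24 h was tested for Jun and did not pass (-1.09 ± 0.81, edgeR adjusted p = 0.72).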

How the results depend on the processing

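Of 1476 alternative values of the 152 log2 fold changes, 1391 kept their side of the threshold, 62 passed only under the alternative, 9 lost their call and 14 reversed a value larger than its SE. In all, 115 had the other sign, the rest of them values not called and within 1 SE of 0. Of 369 alternative counts of called members, 340 stayed within 1.5 times. DESeq2, RLE factors and each time point fitted alone gave the same number of called members in every comparison they covered.

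The other counts moved with the treatment of culture, and in 1 comparison with the filter on low counts. For 6 h against 2 h (1 called), the replicate block gave 4, the replicate block per time point 4, no low-count filter 0, and leaving out a culture 0 to 3; with magnesium (0 called) these were 2 and 3 with the 2 blocks and 0 to 2 on leaving out a culture, and without magnesium (0 called) 1, 2 and 0 to 3. For 24 h against 6 h (4 called), leaving out a culture gave 2 to 4; with magnesium (0 called) both blocks gave 4 and leaving out a culture 0 to 3, and without magnesium (3 called) leaving out a culture gave 0 to 4. For 24 h against 2 h (2 called) both blocks gave 4. For rMBD3 against GFP (0 called), the replicate block per time point gave 2 at 2 h, and leaving out a culture gave 0 to 3 at 24 h and 0 to 3 at 24 h with magnesium. The replicate block of cultures 2 and 3 only, an alternative chosen after seeing the data, gave 3 called members in each of 6 h against 2 h, the same in either medium, 24 h against 6 h with magnesium, and rMBD3 against GFP at 24 h overall and with magnesium, and 1 (Atf3) for the change of the rMBD3 effect from 2 to 24 h. The replicate block also called Jun for 24 h against 6 h without magnesium and changed no other call. The cause of these shifts was not tested.

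Every reversal came without culture 1. Leaving out a culture gave, for the medium difference, -1.11 to 0.27 (Fos, untransfected, 6 h), -2.01 to 0.51 (Fos, rMBD3, 24 h) and -2.65 to 0.62 (Fosb, rMBD3, 24 h). For rMBD3 against GFP at 24 h it gave -1.33 to 0.34 (Atf3, both media), -2.36 to 0.80 (Fosb, with magnesium) and -1.83 to 0.67 (Atf3, with magnesium), and for the difference of that effect between media -1.95 to 1.88 (Fosb). The block of cultures 2 and 3 only gave 0.27, 0.52, 0.68, -1.30, -2.33, -1.81 and 1.91 in the same order. Leaving out 1 of 3 cultures leaves 2 libraries per group.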
